A study of Homo sapiens with 104 samples.

Results

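The transcripts described here encode 10 transcription factors that set B-cell or plasma-cell identity: PAX5, EBF1, SPIB, POU2AF1, IRF4, IRF8, BCL6, BACH2, PRDM1 and XBP1. They were chosen by name, as the probe sets to which the platform annotation gives the single symbol of a factor. This gave 24 of 41097 single-symbol probe sets and 10 of 19775 genes. The arrays hold RNA of human lymphoblastoid lines, which are B cells immortalised with Epstein-Barr virus. The study asked how such lines differ in expression and in survival after MNNG (N-methyl-N′-nitro-N-nitrosoguanidine), a chemical that methylates DNA.

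The groups were MNNG-treated and untreated cells of TK6, of MT1 and of a panel of 24 numbered lines, all grown to mid log phase, with duplicate arrays for each line and condition, which makes 52 MNNG and 52 untreated arrays. TK6 is an established lymphoblastoid line. MT1 is a derivative of TK6 that tolerates alkylating agents and lacks mismatch repair, so it is 1 clone against its parent. Neither the MNNG dose nor the exposure time was found in the labels, and no batch of culture, labelling or hybridisation was named there. The labels do not say whether duplicates came from separate cultures, so tests on single arrays measure a spread that may be technical.

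On 22 of the 52 MNNG arrays a spiked-in control stood apart: one cre probe set differed from another by −6.45 to −5.19 log2 units, whereas on the other 82 arrays the difference was 0.08 to 0.83. These 22 arrays (21 of panel lines and 1 of MT1) were set aside, and results with them are given beside those without. MNNG values then remained for 19 panel lines, 8 of them with both arrays and 11 with 1, and for TK6 (2 arrays) and MT1 (1 array). The files hold linear intensities summarised with PLIER, with a floor of 16, and the median intensity of a kept array was 16.0 to 64.4, so that dim probe sets lie close to the floor. Levels below are quantile-normalised log2(intensity + 16), a scale whose lowest possible value is about 5 and which understates the changes of dim genes. A gene was called at an adjusted p below 0.05 (limma with Benjamini-Hochberg adjustment over 13842 genes). Levels of different genes are not compared, because each comes from its own probes.

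In B cells, EBF1 and PAX5 switch on the B-cell programme, and SPIB, POU2AF1 and IRF8 act with them. BCL6 and BACH2 hold activated B cells in the germinal centre state and repress PRDM1. When a B cell becomes a plasma cell, IRF4 increases and activates PRDM1 (the repressor Blimp-1), which in turn shuts down PAX5 and BCL6, and XBP1 drives the secretory machinery through its spliced form. Lymphoblastoid lines have the features of activated B cells, and a portion of their cells can differentiate towards plasma cells.

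The 250 bases before the RefSeq start of PRDM1, XBP1 and EBF1 (build GRCh38.p14) are shown. On their brightest probe sets these factors rose in the panel and had a different change in TK6 than in MT1, as described further on. Capitals mark the matches found when each window, with a further 50 bases after the start, was searched on both strands for 8 motifs. For PRDM1 (chromosome 6, plus strand, chr6:106086086-106086335) and for EBF1 (chromosome 5, minus strand, chr5:159097957-159098206) the start used lies inside the annotated gene, which has other starts, and for XBP1 (chromosome 22, minus strand, chr22:28800570-28800819) it coincides with the annotated start of the gene.
PRDM1: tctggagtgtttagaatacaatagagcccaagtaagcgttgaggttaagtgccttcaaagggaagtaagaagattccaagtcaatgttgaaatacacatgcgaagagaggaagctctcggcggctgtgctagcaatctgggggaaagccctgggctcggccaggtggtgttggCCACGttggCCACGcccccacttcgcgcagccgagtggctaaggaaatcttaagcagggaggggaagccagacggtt
XBP1: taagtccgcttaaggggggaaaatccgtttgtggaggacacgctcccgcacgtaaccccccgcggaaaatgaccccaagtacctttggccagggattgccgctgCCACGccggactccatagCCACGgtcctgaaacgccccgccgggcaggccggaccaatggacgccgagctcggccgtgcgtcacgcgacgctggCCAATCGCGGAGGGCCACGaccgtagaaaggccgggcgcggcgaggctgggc
EBF1: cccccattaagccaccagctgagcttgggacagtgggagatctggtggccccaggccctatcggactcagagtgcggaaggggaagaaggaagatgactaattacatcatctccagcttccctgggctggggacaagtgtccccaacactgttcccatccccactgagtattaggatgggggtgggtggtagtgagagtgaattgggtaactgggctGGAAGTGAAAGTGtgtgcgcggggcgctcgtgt

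The XBP1 window holds the ER stress response element (CCAAT and CCACG with 9 bases between them), which 22 of 27305 RefSeq promoters of the same length hold (0.0806%). It has 3 matches to CCACG, the short core of such elements, the last of them inside that element. The PRDM1 window holds CCACG 2 times, and 37.9% of all promoters have at least 1. In the EBF1 window a match to the ETS-IRF composite element (GGAA and GAAA with 2 bases between them, 2.84% of promoters) overlaps a match to the PRDM1 core (GAAAGTG, 4.72% of promoters). A promoter was listed for 9 of the 10 factors, and none for POU2AF1. Of the other motifs searched, TGCTGAG (bound by BACH and MAF proteins, 6.88% of promoters) was found only in the BACH2 window, and the EBF1 site (TCCC and GGGA with 2 bases between them, 1.2%), ATGCAAAT (octamer, 1.8%) and TGACGTG (unfolded protein response element core, 2%) in none of the 9.

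In untreated cells, 8 of the 10 factors were measurable. BCL6 and BACH2 lay near the floor on every probe set: the brightest BCL6 probe set ranged from 5.30 to 5.76 over the 24 untreated panel lines and the brightest of BACH2 from 5.27 to 5.59, with deposited intensities no higher than 51.1 and 60.4 on any kept array for the probe sets of BCL6 and BACH2. Both genes fell among the dimmest 30% and were not tested. In TK6 and MT1 they were equally close to the floor, with BCL6 at 5.53 in untreated MT1 and 5.37 in untreated TK6, and BACH2 at 5.41 in MT1 and 5.31 in TK6. All 8 other factors differed between the untreated panel lines (limma F test, adjusted p 3.8e-28 to 0.00028). This share is to be read against a background in which 68.1% of all genes tested did so.

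The 2 factors with the widest range were PRDM1 and EBF1, each with 1 line near the bottom of the scale. PRDM1 had 5.25 in line 21, a median of 7.83 and 8.87 in line 2, a range of at least 12.3-fold, since the low value lies close to the floor. The line next to the lowest, line 23, had 6.33, and without line 21 the range was 5.82-fold. The SD between duplicate arrays was 0.11, so line 21 stood well below its neighbour, while the highest lines (8.87 in line 2 and 8.63 in line 4) lay closer together. EBF1, the pioneer factor of the B lineage, had 5.29 in line 20, a median of 8.18 and 9.16 in line 22, a range of at least 14.6-fold for the same reason. The next line, line 10, had 6.90, and the range without line 20 was 4.79-fold (SD between duplicates 0.14). All 4 EBF1 probe sets had their lowest untreated panel value between 5.24 and 5.32. The PRDM1 levels above are those of its brightest probe set. Its other probe sets ran from 5.22 to 8.40 (235668_at) and, much more narrowly, from 5.64 to 6.73 (217192_s_at). PRDM1 and EBF1 were low in different lines: line 21 had an EBF1 level of 8.50 and line 20 a PRDM1 level of 7.92, both near the panel medians of those genes.

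The other factors varied less. XBP1, the secretory factor, had 9.19 in line 19, a median of 10.06 and 10.98 in line 9 (3.46-fold). IRF8, which supports germinal centre B cells, had 9.37 in line 5, a median of 10.50 and 11.20 in line 23 (3.56-fold). The SD between duplicates was 0.13 for XBP1 and 0.20 for IRF8. SPIB, an ETS factor and partner of IRF4, had 8.25 in line 4, a median of 9.13 and 9.74 in line 21 (2.82-fold), but its duplicates differed most among the factors (SD 0.35), so the order of its lines is loose. POU2AF1, the coactivator that binds the octamer factors, had 11.08 in line 15, a median of 11.80 and 12.27 in line 14 (2.29-fold), with a duplicate SD of 0.055. IRF4 had 10.45 in line 23, a median of 11.11 and 11.58 in line 2 (2.20-fold, duplicate SD 0.22). PAX5 had the narrowest range of the 8, with 10.23 in line 11, a median of 10.60 and 11.10 in line 14 (1.83-fold, duplicate SD 0.14). Neighbouring lines in the order of PAX5, IRF4 or SPIB mostly differed by less than that spread.

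**Figure D1:**
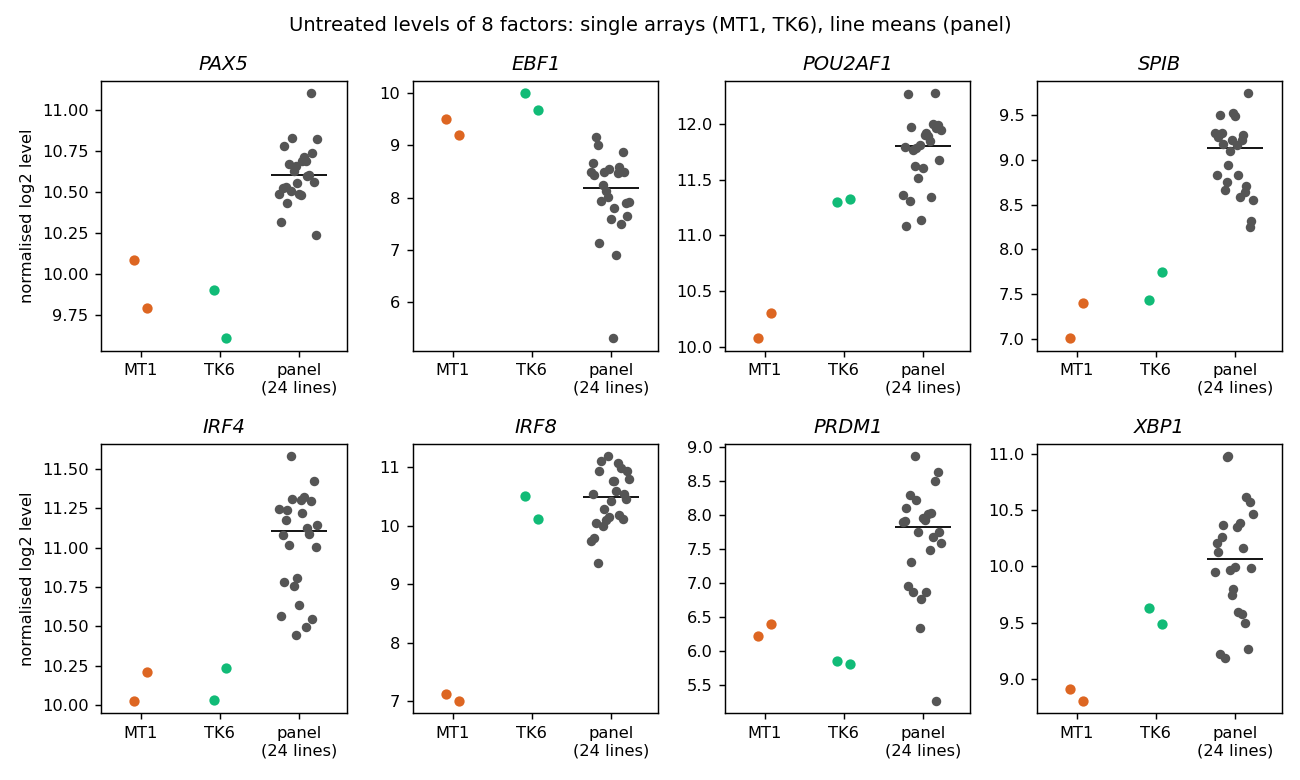
Untreated levels of the 8 factors above the filter (y axis, normalised log2 level, a different range in each panel) in MT1 and TK6 (single arrays) and in the 24 panel lines (1 point per line, mean of duplicates, bar at the median). MT1 and TK6 lie below every panel line for PAX5, SPIB and IRF4 and above every one for EBF1, and the IRF8 level of MT1 (7.13 and 7.00) lies below all 24.

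Lines with more PRDM1 also had more XBP1 and IRF4. Over the 24 untreated lines, PRDM1 and XBP1 had r = 0.76 (Pearson, permutation p = 1e-05, the smallest that 100000 permutations can give, adjusted p = 0.00028 over 28 pairs) and rho = 0.77 (Spearman, permutation p = 3e-05). Without lines 21 and 23, the farthest from the PRDM1 median, r was 0.78. IRF4 and XBP1 had r = 0.64 (permutation p = 0.00083, adjusted p = 0.0083; rho = 0.71, p = 0.00015), and IRF4 and PRDM1 r = 0.63 (permutation p = 0.00089, adjusted p = 0.0083; rho = 0.64, p = 0.0012). Without lines 17 and 23, the farthest from the IRF4 median, r was 0.63 for IRF4 with XBP1 and 0.60 for IRF4 with PRDM1. These 3 were the pairs called among 28. How often pairs of other genes reach such r over these lines was not tested. With the duplicates numbered 2 left out, only PRDM1 and XBP1 were called (r = 0.74), and IRF4 had r = 0.51 with XBP1 (adjusted p = 0.078) and 0.56 with PRDM1 (adjusted p = 0.057). The 2 levels of a pair come from the same arrays.

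**Figure D2:**
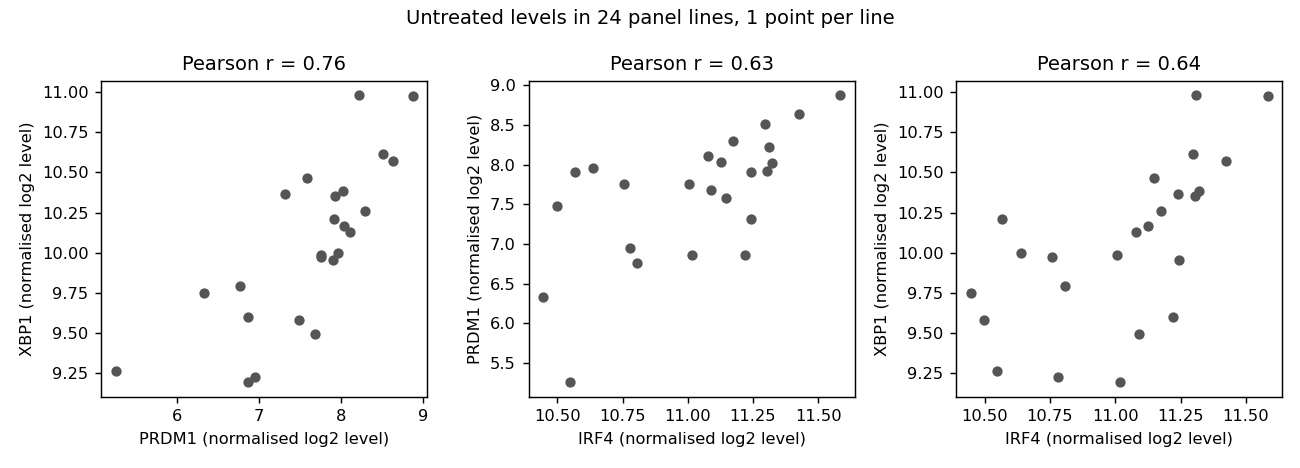
Untreated levels (normalised log2) of PRDM1, XBP1 and IRF4 against each other in the 24 panel lines, 1 point per line (mean of duplicate arrays). Pearson r was 0.76 for PRDM1 with XBP1, 0.63 for IRF4 with PRDM1 and 0.64 for IRF4 with XBP1, and the line at the far left of the PRDM1 axis is line 21 (5.25).

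Other pairs did not pass. EBF1 and IRF8 ran in opposite directions with r = −0.51 (permutation p = 0.0092, adjusted p = 0.059), and by Spearman they were called (rho = −0.59, permutation p = 0.0029, adjusted p = 0.020). Leaving out line 8, 17, 19, 20 or 23 brought this pair below the threshold, with r = −0.60 without line 20 (adjusted p = 0.018). SPIB and IRF4 had r = −0.51 (adjusted p = 0.059) and POU2AF1 and IRF8 r = 0.50 (adjusted p = 0.059), and each passed when certain single lines were left out, SPIB with IRF4 without line 8 (r = −0.57, adjusted p = 0.035) and POU2AF1 with IRF8 without line 22 (r = 0.62, adjusted p = 0.010). SPIB and PRDM1 had r = −0.47 (adjusted p = 0.074) and were called without line 19 (r = −0.53, adjusted p = 0.044). PAX5 and POU2AF1 had r = 0.47 (adjusted p = 0.074) and were called with centred arrays (r = 0.52, adjusted p = 0.045) and without the duplicates numbered 1 (r = 0.55, adjusted p = 0.037). IRF8 and PRDM1 had r = −0.42 (adjusted p = 0.13) and were called by Spearman (rho = −0.53, permutation p = 0.0080, adjusted p = 0.045). PAX5 with PRDM1, the gene it is repressed by, had r = −0.13 (adjusted p = 0.72).

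The genes most like each factor over the 24 untreated lines, by Pearson r among 13841 other genes, are given as a description. For PRDM1 these were JCHAIN (r = 0.82), the joining chain of secreted IgM and IgA, SNRNP200 (0.79), a spliceosome helicase, and MYO5A (0.78), a myosin motor. JCHAIN itself ranged 28.7-fold over the lines. For XBP1 they were TRAM1 (0.83), a translocon protein, UBE2J1 (0.82), a ubiquitin-conjugating enzyme of the endoplasmic reticulum, and ATXN1L (0.80). For IRF4 they were COPB2 (0.86), a coat protein of Golgi vesicles, SELENOS (0.83), a selenoprotein of the endoplasmic reticulum, and SLC38A10 (0.80). EBF1 was most like PAQR3 (0.79), INPP5A (0.79) and NT5E (0.78), which encodes the ecto-nucleotidase CD73. PAX5 was most like TNFSF10 (0.75), the death ligand TRAIL, GP9 (0.73) and CARD8-AS1 (0.72). SPIB was most like CENPV (0.84), WBP2 (0.84) and FASN (0.83), POU2AF1 like NIN (0.82), PANK3 (0.80) and RNF169 (0.79), and IRF8 like TNNT3 (0.80), ABCA5 (0.80) and WDR59 (0.79).

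MNNG moved factors of both programmes in the panel. On the brightest probe set of each gene, PRDM1, XBP1 and EBF1 rose, and IRF4, SPIB and IRF8 fell, whereas PAX5 and POU2AF1 did not pass the test. These are 6 of 8 factors called (3 up and 3 down). The rise of EBF1 rests on 1 of its 4 probe sets, as given further on. In the same fit 42.6% of all 13842 genes were called, 28.7% as higher and 13.8% as lower, and the median change of all genes was 0.037. With values as deposited that median was 0.13, and with arrays centred on their medians it was −0.02. The share of calls that were rises was 67.5%, against 81% with values as deposited and 28.9% with centring. In such bulk samples, fewer cells of a type and less RNA per cell cannot be told apart.

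PRDM1 had 5.43 in the lowest, 8.51 in the median and 9.16 in the highest MNNG-treated line, against 5.25, 7.92 and 8.87 in the same 19 lines untreated. The levels of the groups overlap, but PRDM1 was higher after MNNG in 19 of 19 lines, by 0.12 in line 14 up to 1.14 in line 20. The mean change was 0.57 ± 0.060 (SE, 1.49-fold, adjusted p = 1.2e-07). It was the only factor whose change differed between lines (limma F test, adjusted p = 0.0002, with 6.13% of all genes called). That call was lost with all arrays (adjusted p = 0.59, 2.1% of all genes called) and with values as deposited (adjusted p = 0.85, 0.571%). It was also lost with the mean of all PRDM1 probe sets (adjusted p = 0.060, 5.65%). With either set of duplicates alone each panel group held 1 array and almost no gene was called, so that loss says nothing about PRDM1.

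XBP1 had 9.37, 10.43 and 11.24 in the lowest, median and highest MNNG-treated line, against 9.19, 10.17 and 10.98 untreated. It was higher in 17 of 19 lines, with a mean change of 0.22 ± 0.034 (SE, adjusted p = 1.6e-05), with the largest rise of 0.49 in line 20 and a change of −0.07 in line 9, the line with the highest untreated level. EBF1 had 5.36, 8.44 and 9.27 after MNNG, against 5.29, 8.23 and 9.16 untreated, and was higher in 16 of 19 lines (0.18 ± 0.038, adjusted p = 0.00067), with the largest change of 0.50 in line 19. Line 20, which had EBF1 near the floor when untreated, stayed there after MNNG. With arrays centred on their medians, EBF1 (0.06, adjusted p = 0.57) and XBP1 (0.07, adjusted p = 0.49) no longer passed.

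IRF4 had 9.88 in the lowest, 10.71 in the median and 11.36 in the highest MNNG-treated line, against 10.45, 11.17 and 11.58 untreated. It was lower in 17 of 19 lines, with a mean change of −0.39 ± 0.060 (SE, adjusted p = 1.5e-05). The largest fall was −0.76 in line 3, while line 17 went the other way with 0.30. IRF8 had 9.16, 10.35 and 10.90 after MNNG, against 9.37, 10.46 and 11.20 untreated, and changed by −0.27 ± 0.031 (adjusted p = 4.2e-07), lower in 18 of 19 lines. SPIB had 7.85, 8.73 and 9.37 after MNNG, against 8.25, 9.18 and 9.74 untreated, and changed by −0.30 ± 0.042 (adjusted p = 5.5e-06), lower in 17 of 19 lines. On these probe sets none of the 3 fell by more than 1.31-fold on average.

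PAX5 changed by −0.012 ± 0.035 (adjusted p = 0.82), with 10 lines higher and 9 lower and a range of −0.28 in line 15 to 0.31 in line 4. POU2AF1 changed by 0.039 ± 0.019 (adjusted p = 0.11), with 12 lines higher and 7 lower. Without line 14, whose change of −0.13 was the lowest, POU2AF1 was called with 0.049 (adjusted p = 0.034). The mean change of BCL6 was −0.07 and that of BACH2 0.027, both untested and close to the floor.

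**Figure D3:**
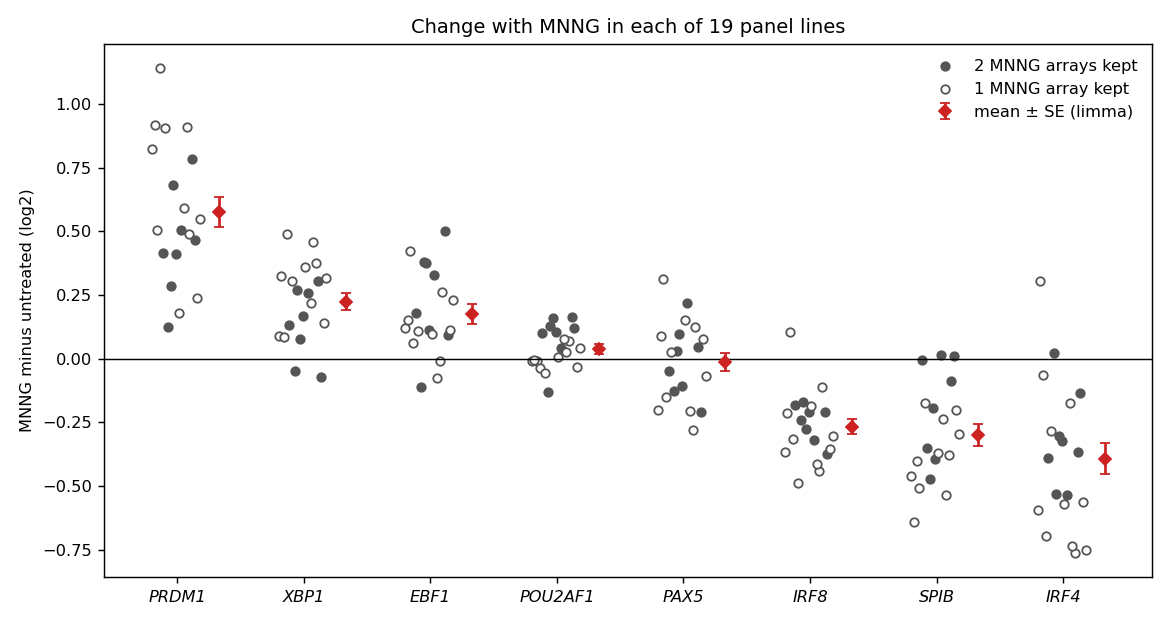
Change of each factor with MNNG (y axis, MNNG minus untreated, log2) in each of the 19 panel lines, filled where both MNNG arrays were kept and open where 1 was, with the mean and SE of the limma fit. All PRDM1 points lie above 0, IRF8 has 1 point above it, and PAX5 and POU2AF1 spread around 0.

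The set-aside arrays bear on these values. In the 8 lines with both MNNG arrays kept, PRDM1 changed by 0.46 (adjusted p = 0.0026), EBF1 by 0.23 (0.024), IRF4 by −0.32 (0.0039) and IRF8 by −0.25 (0.0024), while SPIB (−0.18, adjusted p = 0.054) and XBP1 (0.14, adjusted p = 0.054) did not pass. In that fit 17.4% of all genes were called. In the 11 lines with 1 array kept, the changes were 0.66 for PRDM1, 0.29 for XBP1, 0.13 for EBF1, −0.44 for IRF4, −0.28 for IRF8 and −0.38 for SPIB, and all 6 passed, with 32.9% of all genes called. With only the duplicates numbered 2, MNNG and untreated, 10 lines remained. PRDM1 was then the 1 factor called (0.49, adjusted p = 0.0053), with 8.58% of all genes called. With only those numbered 1, 17 lines remained and 5 factors were called, with 32.7% of all genes called. When all MNNG arrays entered the fit, 7 of 8 factors were called, against 70% of all genes. The changes were then 0.86 for PRDM1, 0.52 for XBP1, 0.51 for EBF1, 0.24 for POU2AF1, −0.61 for IRF4, −1.79 for IRF8 and −1.78 for PAX5, and SPIB turned to 0.047 (adjusted p = 0.63). PAX5 was thus called with the set-aside arrays and not without them.

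Probe sets of 1 factor did not always move alike, and a gene's value here is that of its brightest probe set. Of the 24 probe sets, 16 passed the filter and were tested among 28768, of which 41.8% were called in the panel. PRDM1 rose on 228964_at (0.57 ± 0.059) and on 235668_at (0.57 ± 0.087, adjusted p = 1.1e-05), but on 217192_s_at it changed by −0.015 ± 0.034 (adjusted p = 0.76), although this probe set tracked the first over untreated lines (r = 0.84). EBF1 rose on 227646_at, the value given above. On 232204_at it changed by 0.0049 (adjusted p = 0.93), on 229487_at by 0.054 (adjusted p = 0.24) and on 233261_at by −0.26 (adjusted p = 0.00072). With the mean of all its probe sets EBF1 changed by −0.007, so its rise in the panel rests on 1 probe set.

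IRF4 fell more on its dimmer probe set 216986_s_at, by −1.14 ± 0.082 (adjusted p = 1.2e-09, lower in 18 of 19 lines), than on 204562_at. SPIB fell on both of its probe sets, with −0.14 ± 0.045 on 232739_at (adjusted p = 0.013). PAX5 had a second probe set, 206802_at, that lay near the floor, with a mean level of 5.59 and a change of −0.0042 in the panel.

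**Figure D4:**
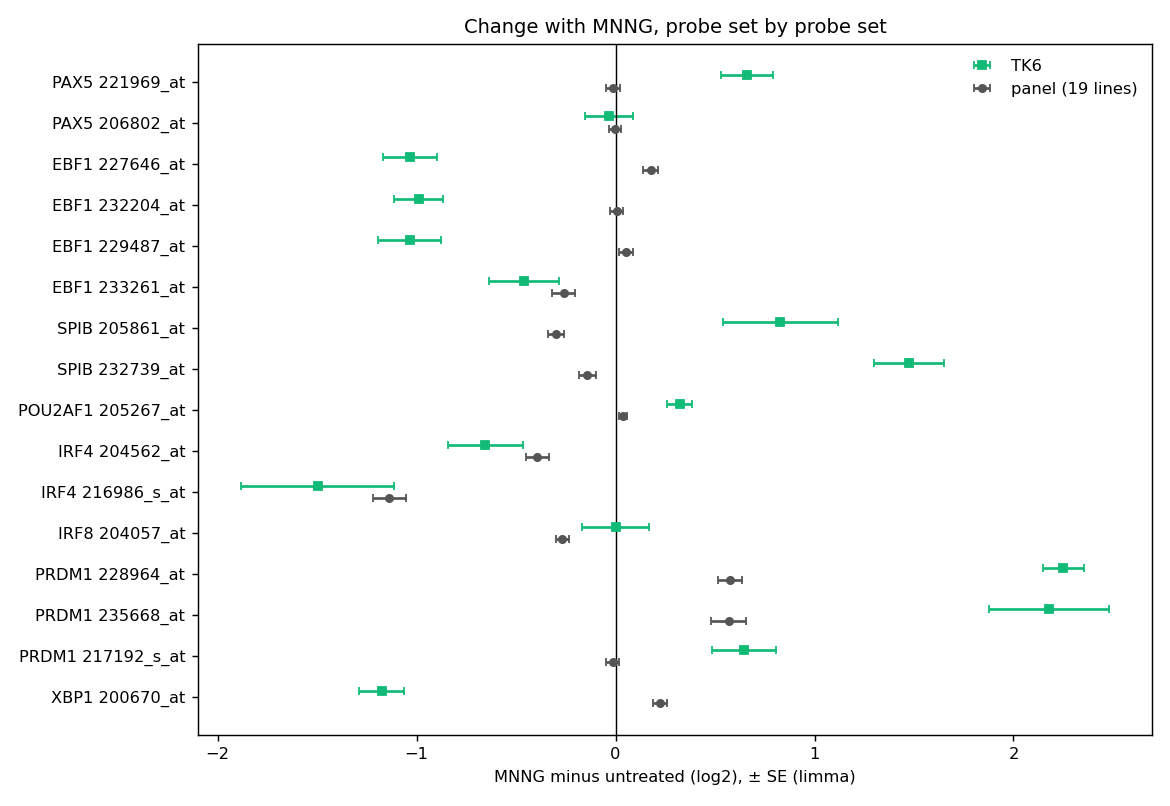
Change with MNNG (x axis, MNNG minus untreated, log2, with SE from limma) for the 16 probe sets of the factors that passed the filter, in TK6 and in the 19 panel lines. In TK6 all 4 EBF1 probe sets lie below 0 and all 3 of PRDM1 above it, whereas in the panel the probe sets of EBF1 point to both sides and 217192_s_at of PRDM1 lies at −0.015.

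CDKN1A, which encodes the arrest protein p21 and is induced by p53 after DNA damage, served as a measure of each line's response. It changed by 0.28 ± 0.085 in the panel (adjusted p = 0.0098). Over the 19 lines, 0 of 8 factors had a change related to that of CDKN1A by Pearson correlation with permutation p-values adjusted over the 8, and 0 had an unadjusted p below 0.05. XBP1 came nearest with r = −0.43 (permutation p = 0.063, adjusted p = 0.50) and rho = −0.49 (p = 0.037, adjusted p = 0.29). For PRDM1, r was 0.16 (permutation p = 0.51) and rho 0.19 (p = 0.43). Without lines 1 and 4, the farthest from the median CDKN1A change, the r of PAX5 was −0.59, against −0.16 with them. Without line 4 alone PAX5 passed with r = −0.64 (adjusted p = 0.035), so that call depends on line 4.

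In TK6, MNNG changed 7 of the 8 factors: PRDM1, SPIB, PAX5 and POU2AF1 rose, and XBP1, EBF1 and IRF4 fell. The background was 41.2% of all genes called (21.6% higher and 19.5% lower). PRDM1 had 8.05 and 8.11 on the MNNG arrays, against 5.85 and 5.80 on the untreated ones. On this probe set, its brightest, the change was 2.25 ± 0.10 (SE, 4.76-fold, adjusted p = 1.5e-21). Its other probe sets changed in TK6 by 2.18 ± 0.30 (235668_at) and by only 0.65 ± 0.16 (217192_s_at). XBP1 had 8.35 and 8.41 after MNNG, against 9.63 and 9.49 untreated (−1.18 ± 0.11, adjusted p = 1.7e-11). The MNNG and untreated arrays of TK6 did not overlap for either gene. PRDM1 and XBP1, which were high together over untreated lines and rose together in the panel, went opposite ways in TK6.

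EBF1 had 8.71 and 8.90 in MNNG-treated TK6, against 10.00 and 9.68 untreated (−1.03 ± 0.14, adjusted p = 2.8e-08), and the change was between −1.04 and −0.46 on all 4 of its probe sets. PAX5 had 10.25 and 10.57 after MNNG, against 9.90 and 9.60 untreated (0.66 ± 0.13, adjusted p = 5.4e-05). POU2AF1 had 11.65 and 11.62, against 11.30 and 11.33 (0.32 ± 0.061, adjusted p = 3.1e-05). These 3 genes of the B-cell programme therefore did not share a direction. SPIB had 8.61 and 8.22 after MNNG, against 7.44 and 7.75 untreated (0.83 ± 0.29, adjusted p = 0.020), and its other probe set changed by 1.47 ± 0.17 (adjusted p = 3.5e-09, with 36.2% of all probe sets called in TK6). IRF4 had 9.63 and 9.32, against 10.03 and 10.23 (−0.65 ± 0.19, adjusted p = 0.0044). IRF8 had 10.23 and 10.39, against 10.51 and 10.11, with a change of 0.0022 ± 0.17 (adjusted p = 0.99).

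The changes of PAX5, SPIB and IRF4 in TK6 differed in size between duplicates but kept their direction. Without the arrays numbered 2 the change was 0.35 for PAX5, −0.40 for IRF4 and 1.18 for SPIB. Without those numbered 1 it was 0.97, −0.91 and 0.48. Each of these fits had 1 TK6 array per condition, so calls in them cannot be read as results about the factors. With arrays centred on their medians, PRDM1, XBP1 and EBF1 were the 3 factors called, with 32.9% of all genes called. SPIB then had 0.74 (adjusted p = 0.18), IRF4 −0.86 (adjusted p = 0.063) and PAX5 0.44 (adjusted p = 0.096), while POU2AF1 had 0.031 (adjusted p = 0.94). With all arrays only XBP1 was called (adjusted p = 0.0085), with 3.35% of all genes called, although the values moved little (PRDM1 1.99, XBP1 −1.21, EBF1 −1.06). CDKN1A changed by 2.95 ± 0.082 in TK6 (adjusted p = 2.1e-28).

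In MT1, which kept 1 MNNG array, POU2AF1 was the 1 factor called, against a background of 3.56% of genes (2.36% higher). The share of calls that were rises was 66.1%, against 92.9% with values as deposited and 22.4% with centring. It had 10.62 after MNNG, against 10.07 and 10.31 untreated (0.43 ± 0.075, adjusted p = 0.00048). With centred arrays this was 0.016 (adjusted p = 0.99), where the median change of all genes was −0.13. Relative to the median of all genes POU2AF1 was higher by 0.39, and by 0.15 both with centring and with values as deposited. PRDM1 had 6.42 after MNNG, against 6.21 and 6.39 untreated (0.12 ± 0.12, adjusted p = 0.75). XBP1 had 8.80, against 8.91 and 8.80, EBF1 9.41, against 9.51 and 9.19, and PAX5 9.87, against 10.08 and 9.79. For each of these 3 the MNNG value lay within or just below the untreated pair. IRF4 changed by −0.69 ± 0.23 (adjusted p = 0.091), and CDKN1A by 0.087 ± 0.10 (adjusted p = 0.78). With all 22 set-aside arrays returned, POU2AF1 had a change of 0.67 (adjusted p = 0.28) and PAX5 one of −2.27 (adjusted p = 0.51).

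The change in TK6 differed from that in MT1 for 4 of the 8 factors, with 24.7% of all genes called. The difference (TK6 change minus MT1 change) was 2.13 ± 0.16 for PRDM1 (adjusted p = 7.5e-14), −1.12 ± 0.18 for XBP1 (adjusted p = 4.5e-06), −1.09 ± 0.21 for EBF1 (adjusted p = 0.00012) and 0.72 ± 0.21 for PAX5 (adjusted p = 0.0071). All 4 rest on the single MNNG array of MT1, which was assumed to vary like the arrays of other groups. For CDKN1A the difference was 2.86 ± 0.13. Not every probe set had such a difference: it was 0.37 ± 0.26 on 217192_s_at of PRDM1 and 0.13 ± 0.28 on 233261_at of EBF1. It was 1.78 ± 0.48 on 235668_at of PRDM1, and −1.07 ± 0.20 on 232204_at and −1.20 ± 0.25 on 229487_at of EBF1. The second SPIB probe set, 232739_at, also differed (1.42 ± 0.28, adjusted p = 0.00013), while its first did not pass (0.65 ± 0.46, adjusted p = 0.36). For IRF4, which changed by −0.65 in TK6 and had −0.69 in MT1, the difference was 0.038 ± 0.30 (adjusted p = 0.96), too wide an error to show that the lines were alike. The PAX5 call was lost with values as deposited (adjusted p = 0.11), with centring (adjusted p = 0.062) and with the mean of all probe sets (0.37, adjusted p = 0.078), and the XBP1 call with centring (−0.97, adjusted p = 0.052). The PAX5 mean takes in 206802_at, which lay near the floor with a difference of 0.024 ± 0.19. A smaller mean was therefore bound to follow, and that loss says little about PAX5. With all 22 set-aside arrays returned, XBP1 was the 1 factor that passed (−1.61, adjusted p = 0.045), with 0.91% of all genes called. A fit that returned the MT1 array alone was not run.

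**Figure D5:**
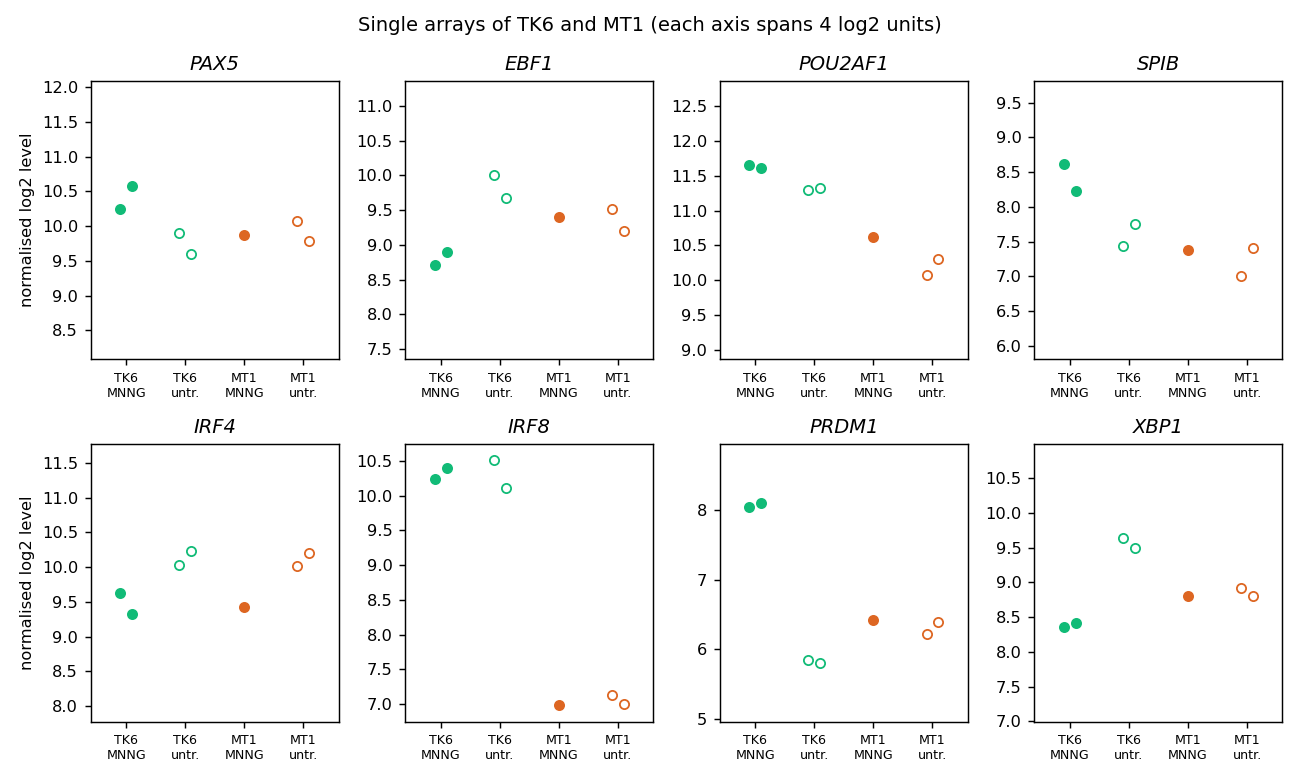
Level of each factor (y axis, normalised log2, every axis spanning 4 units) on the single arrays of TK6 and MT1, filled after MNNG and open when untreated. MNNG-treated TK6 lies above untreated TK6 for PRDM1 (8.05 and 8.11 against 5.85 and 5.80) and below it for XBP1 and EBF1, and the single MNNG array of MT1 lies close to its untreated pair for these genes.

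Before any treatment MT1 and its parent already differed in 5 of the 8 factors, with 25.2% of all genes called (13.6% higher and 11.7% lower in MT1). IRF8 had 7.13 and 7.00 in MT1, against 10.51 and 10.11 in TK6 (MT1 minus TK6 −3.24 ± 0.17, a 9.48-fold difference, adjusted p = 2.8e-19). TK6 lay within the range of the panel, above 10 of its 24 lines, whereas MT1 was below all 24. POU2AF1 was also lower in MT1 than in TK6, at 10.07 and 10.31, against 11.30 and 11.33 (−1.12 ± 0.061, adjusted p = 1.4e-18), and again MT1 lay below all 24 panel lines. XBP1 (−0.70 ± 0.11, adjusted p = 4.0e-06) and EBF1 (−0.49 ± 0.14, adjusted p = 0.0051) were lower too, and PRDM1 was higher (0.47 ± 0.10, adjusted p = 0.00031). The EBF1 call was lost with values as deposited (adjusted p = 0.15). Without either set of duplicates, which leaves 1 array in each group, the EBF1 difference stayed at −0.49. The PRDM1 call was lost with values as deposited (adjusted p = 0.099), with centring (adjusted p = 0.079) and with the mean of all probe sets (0.14, adjusted p = 0.44). The PRDM1 difference was 0.36 without the duplicates numbered 2 and 0.58 without those numbered 1. On the PRDM1 probe set 217192_s_at it was −0.33. With all arrays only POU2AF1 was called (−1.13, adjusted p = 0.00026), with 1.29% of all genes called, and IRF8 had −3.25 (adjusted p = 0.36).

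MT1 and TK6 also stood apart from the panel, as a description of these 2 related lines. Their PAX5 levels (9.94 in MT1 and 9.75 in TK6) were below the lowest panel line (10.23), as were SPIB (7.20 and 7.59, against 8.25) and IRF4 (10.12 and 10.13, against 10.45). Their EBF1 levels (9.35 in MT1 and 9.84 in TK6) were above the highest panel line (9.16), and their PRDM1 levels (6.30 and 5.83) were above only 1 of the 24, line 21. After MNNG the PRDM1 level of TK6 was therefore within the panel's untreated range, near its median of 7.83.

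The labelled cell type was checked against its markers. All 7 B-cell markers that matched a probe set passed the filter, with summed intensities of 12588 to 25928 on MNNG arrays and 12837 to 29714 on untreated arrays. Over the 10 T and NK cell markers the sum was 173 to 620 on MNNG arrays and 173 to 788 on untreated arrays, where 10 probe sets at the floor of 16 would give 160. Myeloid markers summed to 260 to 835 on MNNG arrays and 139 to 808 on untreated arrays (floor 128), with LYZ the brightest, and erythroid and platelet markers to 227 to 574 and 69.0 to 537 (floor 64), with HBB holding 70% of the sum. Fibroblast and epithelial markers summed to 156 to 1393 on MNNG arrays and 173 to 1565 on untreated arrays. Of these lists, 5 of 10 T and NK, 6 of 8 myeloid, 2 of 4 erythroid and platelet and 6 of 8 fibroblast and epithelial markers passed the filter. With MNNG in the panel 4 of the 7 B-cell markers fell and 1 rose, with CD74 at −0.35 ± 0.034 (adjusted p = 4.8e-08, lower in 18 of 19 lines). Over all genes 13.8% fell and 28.7% rose. Of the markers tested in the other lists, 3 rose and 0 fell, namely HBB (0.31 ± 0.082, adjusted p = 0.0032, higher in 17 of 19 lines), LYZ (0.40 ± 0.14, adjusted p = 0.027) and GNLY (0.090 ± 0.034, adjusted p = 0.035). In TK6, ITGAM, a myeloid integrin, rose by 2.27 ± 0.16 (adjusted p = 9.4e-16), and NKG7 fell by 1.16 ± 0.13 (adjusted p = 3.9e-10), as did GNLY, COL1A2 and CDH1. The part of these lists in the changes of the factors was not tested.

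Genes that work with the factors are given as counts from lists, to be read against the shares of all genes. In the panel 28.7% of all genes rose and 13.8% fell, and in TK6 21.6% rose and 19.5% fell. In untreated MT1 13.6% of all genes were higher than in TK6 and 11.7% lower. Of the 31 other B-lineage transcription factors tested, 8 rose and 11 fell with MNNG in the panel (median −0.03, against 0.037 over all genes). ELF1, an ETS factor, fell by 0.44 ± 0.047 (adjusted p = 1.6e-07) and TCF3, which encodes the E proteins E12 and E47, by 0.29 ± 0.035 (adjusted p = 8.8e-07), each lower in 19 of 19 lines. SPI1, which encodes PU.1, the partner of IRF4 and IRF8, fell by 0.34 ± 0.053 (adjusted p = 1.7e-05), also in 19 of 19 lines. ID2, an inhibitor of E proteins, rose by 0.37 ± 0.077 (adjusted p = 0.00044) in 19 of 19 lines. In TK6, 12 of the 31 rose and 7 fell, and TCF3 fell by 1.54 ± 0.099 (adjusted p = 1.2e-16).

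Of the 6 other interferon regulatory factors, 3 fell and 0 rose in the panel, namely IRF2 (−0.43 ± 0.038, adjusted p = 2.2e-08), IRF3 (−0.17 ± 0.029, adjusted p = 6.8e-05) and IRF9 (−0.11 ± 0.041, adjusted p = 0.033). In TK6, 4 of the 6 rose and 0 fell, with a median change of 1.25 against −0.029 over all genes. IRF9 rose there by 1.91 ± 0.088 (adjusted p = 3.6e-21), and its change in TK6 exceeded that in MT1 by 1.47 ± 0.14 (adjusted p = 4.5e-11). IRF4 fell and IRF8 did not pass in the same TK6 arrays. Of 19 partners and corepressors, 4 rose and 8 fell in the panel, with the histone demethylase KDM1A at −0.43 ± 0.041 (adjusted p = 4.6e-08), the corepressor CTBP1 at −0.27 ± 0.030 (adjusted p = 2.3e-07), BACH1, a relative of BACH2, at −0.25 ± 0.048 (adjusted p = 0.00017), and BATF3, a partner of IRF4, at 0.22 ± 0.034 (adjusted p = 1.8e-05).

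Of 20 B-cell genes activated by PAX5 and EBF1, 7 fell and 0 rose in the panel, against 13.8% and 28.7% of all genes. The largest falls were in BLK, a Src-family kinase (−0.49 ± 0.052, adjusted p = 1.4e-07), and CD22, an inhibitory receptor (−0.34 ± 0.062, adjusted p = 0.00011), followed by CD72 (−0.15) and FCER2 (−0.11). The list's median was −0.06. In TK6, 7 of them rose and 6 fell, against 21.6% and 19.5% of all genes. Untreated MT1 had 10 of the 20 lower than TK6 and 1 higher, with a median difference of −0.36 against 0.012 over all genes. FCER2, the low-affinity IgE receptor CD23, was among the lower ones (MT1 minus TK6 −3.02 ± 0.19, adjusted p = 2.6e-16) and CD22 had −1.82 ± 0.16 (adjusted p = 1.4e-12). MS4A1, which encodes CD20 and was singled out after its value was seen, had −4.80 ± 0.060 (adjusted p = 6.5e-41). Of 14 germinal centre genes 2 rose and 4 fell in the panel, with BCL7A at −0.29 ± 0.060 and CD38 at 0.20 ± 0.038.

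Of 23 plasma cell genes, 13 rose and 4 fell in the panel (median 0.097), against 28.7% and 13.8% of all genes. TNFRSF17, the survival receptor BCMA of plasma cells, rose in 19 of 19 lines by 0.35 ± 0.038 (adjusted p = 2.4e-07) and in TK6 by 2.30 ± 0.13 (adjusted p = 9.1e-19). DERL3, of the degradation machinery of the endoplasmic reticulum, rose in the panel by 0.31 ± 0.051 (adjusted p = 3.3e-05), whereas ARHGAP17 (−0.29) and PIM2 (−0.28) fell. In TK6, 8 of the 23 rose and 7 fell (median −0.12), against 21.6% and 19.5% of all genes. Of 26 XBP1 targets of secretion and protein folding, 11 rose and 3 fell in the panel (median 0.061), against 28.7% and 13.8% of all genes. SDF2L1 had 0.49 ± 0.078 (adjusted p = 2.2e-05), MANF 0.42 ± 0.057 (adjusted p = 4.1e-06) and DNAJC3 0.33 ± 0.042 (adjusted p = 1.4e-06), while PDIA4 changed by −0.50 ± 0.075 (adjusted p = 1.3e-05). In TK6, where XBP1 fell, 7 of these targets rose and 10 fell (median −0.22), against 21.6% and 19.5% of all genes. The largest TK6 changes on the list, singled out after their values were seen, went both ways. SEC24D fell by 1.44 ± 0.18, PDIA3 by 1.08 ± 0.12 and SSR3 by 1.05 ± 0.065. CRELD2 rose by 1.27 ± 0.081, SEC61A1 by 1.16 ± 0.086 and HYOU1 by 1.15 ± 0.16. MANF, named above for its panel rise, fell in TK6 by 0.29 ± 0.087 (TK6 minus MT1 −0.67 ± 0.14).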

How the data were processed

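Biotin-labelled cRNA of untreated and MNNG-treated lymphoblastoid lines was hybridised to Affymetrix arrays of 54675 probe sets. The deposited values are linear PLIER intensities, per the submitters' processing notes, which name no version. The members and lists were chosen with earlier results of these data known.

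MNNG arrays on which AFFX-r2-P1-cre-5_at lay over 2 log2 units below AFFX-CreX-5_at were left out. Log2(intensity + 16) was quantile normalised over 82 arrays, probe sets with 1 symbol were kept (1801 had several and 11777 none), and a gene took the value of its brightest probe set by mean. The dimmest 30% of genes were left out. In limma (3.58.1, R 4.3.3, trend) the panel fit used line means with a block for line, which makes lines the units of replication. All other tests were contrasts or F tests on single arrays in a joint model of all 47 group means, with standard errors from the moderated test. A probe-set fit used the same settings.

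Correlations used 100000 two-sided permutations. The genes named were all 10 members with every probe set, the 3 genes most like each tested member, CDKN1A, and from every list the called genes with the largest panel change, at most 4; others from the lists are named for comparison. Promoters, gene positions and motif shares come from RefSeq tables (GRCh38.p14). Duplicate arrays correlated at 0.959 to 0.997, and at most 3.52% of their values were identical. Alternatives were other pseudocounts (1 and 64), filters, scalings, blocks, array sets and the mean of a gene's probe sets, and leaving out each duplicate or line; the split of lines by arrays kept was added after seeing the data. The number of arrays limits the precision. The fits were tested on simulated data.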

Additional observations from a re-analysis of the deposited data

Results flagged for a closer look

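A total of 5 results stood out because an effect of the same contrast differed between groups by a test of the difference itself. The change of PRDM1 with MNNG in TK6 exceeded that in MT1 by 2.13 log2 units. For PAX5 the difference (TK6 change minus MT1 change) was 0.72, with PAX5 called as a rise in TK6 and not called in MT1. For XBP1 it was −1.12 and for EBF1 −1.09, and both genes fell in TK6. All 4 rest on 1 MNNG array of MT1. The difference was smaller on 217192_s_at of PRDM1 (0.37) and on 233261_at of EBF1 (0.13). Among the panel lines, PRDM1 was the 1 factor whose change with MNNG differed from line to line (F test, adjusted p = 0.000199), from 0.12 in line 14 to 1.14 in line 20. Both of these lines lay outside the next values, 0.18 and 0.92. Line 20 and line 17 (0.92) each kept 1 MNNG array, whereas line 14 kept 2. The call was lost with all arrays, with values as deposited and with the mean of all PRDM1 probe sets.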

How the results depend on the processing

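Under the alternatives, 176 counts of called factors or pairs stayed within 1.5 times the count given, 10 were larger and 19 smaller. The share of all genes called moved as well, and is given beside the counts. With all arrays, 4 factors differed between untreated lines, with 9.96% of all genes called. The counts were then 1 in TK6 (3.35% of all genes), 0 in MT1 (0.101%) and 1 for TK6 minus MT1 (0.91%). They were 1 for untreated MT1 minus TK6 (1.29%), 0 for line differences in response (2.1%), 5 pairs and 7 relations with CDKN1A. SPIB in the panel then turned to 0.047, and the correlations of changes with CDKN1A to 0.84 for PAX5, −0.72 for EBF1, −0.72 for POU2AF1 and −0.46 for PRDM1. With centring on array medians the counts were 3 in TK6 (32.9% of all genes), 6 pairs and 4 relations, with PAX5 at r = 0.53. With values as deposited they were 3 for untreated MT1 minus TK6 (11.5% of all genes), 6 pairs and 0 for line differences (0.571%). The mean of all probe sets gave 1 pair, 0 for line differences (5.65% of all genes) and −0.0065 for EBF1 in the panel. Without a line block, 1 factor was called in the panel, with 15.1% of all genes called. Spearman gave 5 pairs. A replicate block gave 7 factors in the panel (42.7% of all genes). In MT1, with its 1 MNNG array, IRF4 (−0.76) then passed as well as POU2AF1. Whether duplicate numbers pair the samples was checked in 9 lines, where deviations of same-numbered arrays correlated from −0.62 to 0.14 (median −0.045). No strong positive relation was seen there, and the other lines were not part of that check. Leaving out either duplicate gave 1 to 5 factors in the panel, with 8.58% to 32.7% of all genes called, and 1 to 4 pairs. The other tests then had 1 array in each group compared, so their counts cannot be read as results about the factors. MT1's change cannot be had without its duplicate 2. Leaving out single lines gave 6 to 7 factors in the panel. The share of all genes called in the panel was then below the 42.6% of the full set of lines, except without line 4, 14 or 17. Single lines left out also gave 3 to 7 pairs (7 without line 19, 5 without line 8) and 0 to 1 relations with CDKN1A. The cause of each shift was not tested, except that fewer arrays enter when duplicates or lines are left out. Levels near the floor limit what can be read of BCL6, BACH2, PRDM1 in line 21 and EBF1 in line 20.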

Other observations

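Some genes of the lists had large changes in TK6 after MNNG. They were singled out after their values were seen and are given as values. IRF1 rose in TK6 by 1.49 ± 0.19 (SE, limma, adjusted p = 8.9e-09) and IRF5 by 1.01 ± 0.18 (adjusted p = 1.5e-05), while in the panel IRF1 had 0.026 (adjusted p = 0.59) and IRF5 0.082 (adjusted p = 0.21). POU2F2, the octamer factor that POU2AF1 binds, rose in TK6 by 1.32 ± 0.12 (adjusted p = 1.5e-12) and exceeded its MT1 change by 1.31 ± 0.18 (adjusted p = 3.9e-07). ID3, an inhibitor of E proteins, rose by 1.85 ± 0.072 and FOXO1 by 1.14 ± 0.099 in TK6.

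In TK6, SDC1, the plasma cell surface marker CD138, rose by 1.40 ± 0.14 (adjusted p = 5.4e-11), and CD83, an activation marker, by 1.96 ± 0.063 (adjusted p = 2.8e-26). MZB1, a chaperone of antibody assembly, changed by −2.72 ± 0.13 (adjusted p = 4.0e-20) and CD79A, a signalling chain of the B-cell receptor, by −1.47 ± 0.16 (adjusted p = 3.4e-10). In untreated cells BANK1, a B-cell adaptor, was lower in MT1 than in TK6 (MT1 minus TK6 −3.57 ± 0.14, adjusted p = 1.6e-23) and BATF3 higher (1.39 ± 0.11, adjusted p = 7.1e-14).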
